A study of Danio rerio with 12 samples.

Results

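Open chromatin was compared between cells that carried both reporters of a pair of transgenes and cells that carried the GFP reporter alone, so that the fractions differed in kdrl:mCherry and shared sele:GFP. All cells came from wild-type zebrafish embryos that held both transgenes, grown without treatment to 72 hours post fertilisation, homogenised whole and sorted by FACS. The fractions were kdrl:mCherry+, sele:GFP+ (double positive, 3 samples) and kdrl:mCherry-, sele:GFP+ (GFP only, 3 samples), with kdrl:mCherry+, sele:GFP- (mCherry only, 3 samples) and kdrl:mCherry-, sele:GFP- (double negative, 3 samples) as context. About 12000 to 50000 cells per sample were given to Tn5, the transposase that cuts and tags accessible DNA in ATAC-seq. Each fraction is 1 list of peaks pooled over its 3 samples, so no value below has a replicate check and no p-value is given. Every peak of the double positive and GFP only lists on chromosomes 1 to 25 was used, 90687 and 138364 peaks, which merge into 162234 regions of the 240071 that the 4 lists form together.

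The receptor made from kdrl lets endothelial cells sense vascular endothelial growth factor, and the kdrl promoter is widely used in zebrafish to label blood vessels. The sele gene encodes E-selectin, an adhesion molecule that activated endothelium displays to passing leukocytes. A cell is placed here by reporter fluorescence and not by its own kdrl or sele locus, and a fraction sorted from a whole embryo may hold several cell types. Accessible regions are mostly promoters and enhancers, and those that differ between cell types are often enhancers, which tend to lie in groups around the genes they control. No annotation of danRer7, the genome build of the files, was used here, so neither the genes at these regions nor the markers that would check the identity of the cells were analysed.

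The GFP only list had many more regions of its own than the double positive list, and most of the surplus lay in low peaks. No GFP only peak was met by 24975 of the 90687 double positive peaks (27.5%, 27.2 to 27.8, a Wilson 95% interval), which are called gained. Of the 138364 GFP only peaks, 72718 (52.6%, 52.3 to 52.8) met no double positive peak and are called lost. These words name the direction of the comparison between fractions, not a change in time, and all intervals cover counting error only. Gained regions took 8.12 Mb, 21.4% of the bases in double positive peaks, and lost regions took 24.1 Mb, 43.8% of the bases in GFP only peaks. Lost regions were 2.91 times as many as gained ones. Shared peaks were nearly equal in number, 65712 in double positive and 65646 in GFP only, so this surplus follows the difference in list length. The ratio was 1.01 when the GFP only list was cut to the length of the double positive list by keeping its strongest peaks. Equal lengths bring a ratio near 1 by construction, so this value says nothing more about the fractions. In sorted mixtures, a region open in more of the cells and a region more open in each cell cannot be told apart. The depth of the libraries is not known from peak lists. Their genome-wide backgrounds were 3.63 reads for double positive and 4.26 reads for GFP only.

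Unshared regions were lower and narrower than shared ones in both lists. Height stands for summit reads relative to the genome-wide background of the list they come from. Gained regions had a median height of 5.23 and shared double positive peaks 7.99, with quartiles of 4.13 and 7.99 for gained and of 5.23 and 14.6 for shared. Lost regions had a median height of 4.69 and shared GFP only peaks 8.21, with quartiles of 3.99 and 6.57 for lost and of 5.39 and 13.1 for shared. The median width was 284 bp for gained regions against 395 bp for shared double positive peaks. It was 293 bp for lost regions against 420 bp for shared GFP only peaks. Peaks of 200 to 249 bp were gained in 45.1% of cases and lost in 75.6%. Those of 1000 bp or more were gained in 2.12% of cases (43 of 2027) and lost in 5.58% (123 of 2206).

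The share of unshared peaks dropped with height in both lists, and the lists came together among the tallest peaks. Below height 4, 49.5% of double positive peaks were gained and 79.8% of GFP only peaks were lost. From 10 to 15 the shares were 18.7% gained and 28.4% lost, and from 20 to 30 they were 8.55% gained and 10.8% lost. Among peaks that reached height 40, 5 of 1083 in the double positive list were gained and 9 of 550 in the GFP only list were lost. Peaks that reached height 10 are called tall from here on, and 4071 of 30241 tall double positive peaks were gained (13.5%, 13.1 to 13.8) and 6866 of 32113 GFP only peaks were lost (21.4%, 20.9 to 21.8). From height 20 upwards the numbers were nearly equal, with 646 gained of 10436 (6.19%) and 648 lost of 7727 (8.39%). The lost share was still the larger.

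**Figure D1:**
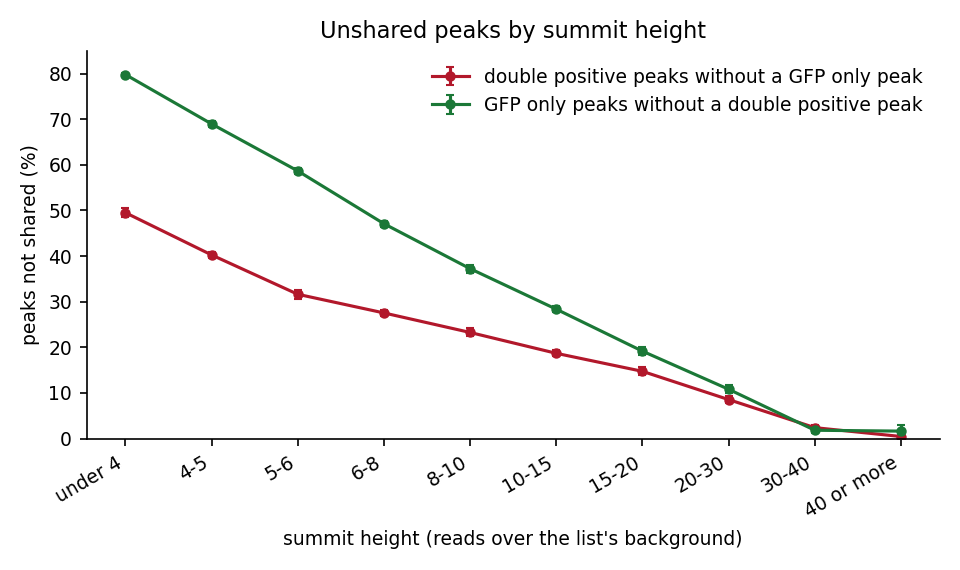
Share of peaks without a partner in the other list (vertical axis, %) by summit height in reads over the list's background (horizontal axis), for double positive peaks without a GFP only peak and GFP only peaks without a double positive peak; bars are Wilson 95% intervals. Below height 4 the shares are 49.5% and 79.8%, and both lie under 3% from height 30 upwards.

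An unshared peak was usually not a shifted copy of a peak in the other list. Of the 24975 gained regions, 12.4% had a GFP only peak within 500 bp of their edge, and 87.8% had one within 10 kb. Of the 72718 lost regions, 5.82% had a double positive peak within 500 bp and 68.7% had one within 10 kb. Tall gained regions lay a median of 2407 bp from the nearest GFP only peak, and tall lost regions 3711 bp from the nearest double positive peak. The GFP only list is the longer, so the distances of gained and lost regions do not compare with each other.

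The GFP-negative fractions, whose samples do not enter the comparison, divided the tall gained regions by mCherry. Of the 4071 tall gained regions, 3698 (90.8%, 89.9 to 91.7) were also called in mCherry only cells and 1230 (30.2%, 28.8 to 31.6) in double negative cells. In 2516 of them (61.8%) the region was called in mCherry only and not in double negative, against 48 (1.18%) with the opposite pattern. A further 1182 were called in both lists and 325 in neither. Among those that reached height 20, 444 of 646 gained regions (68.7%) were called in mCherry only and not in double negative, and 4 had the opposite pattern. Tall double positive peaks that were shared with GFP only had this mCherry pattern in 5.09% of cases and lay in both GFP-negative lists in 94.5%.

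The lost regions divided in another way. Of the 6866 tall lost regions, 1328 (19.3%) were called in double negative and not in mCherry only, against 447 (6.51%) with the opposite pattern. The largest group, 2765 regions (40.3%, 39.1 to 41.4), was called in neither GFP-negative list, and 2326 (33.9%) were called in both. At height 20 or more the groups were 236 in double negative and not in mCherry only, 16 with the opposite pattern, 238 in both and 158 in neither, of 648. Tall GFP only peaks that were shared with double positive lay in both GFP-negative lists in 97.2% of cases, in neither in 0.388%, and in double negative and not in mCherry only in 0.594%. Whether the difference between the gained and the lost pattern exceeds the spread between samples was not tested.

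**Figure D2:**
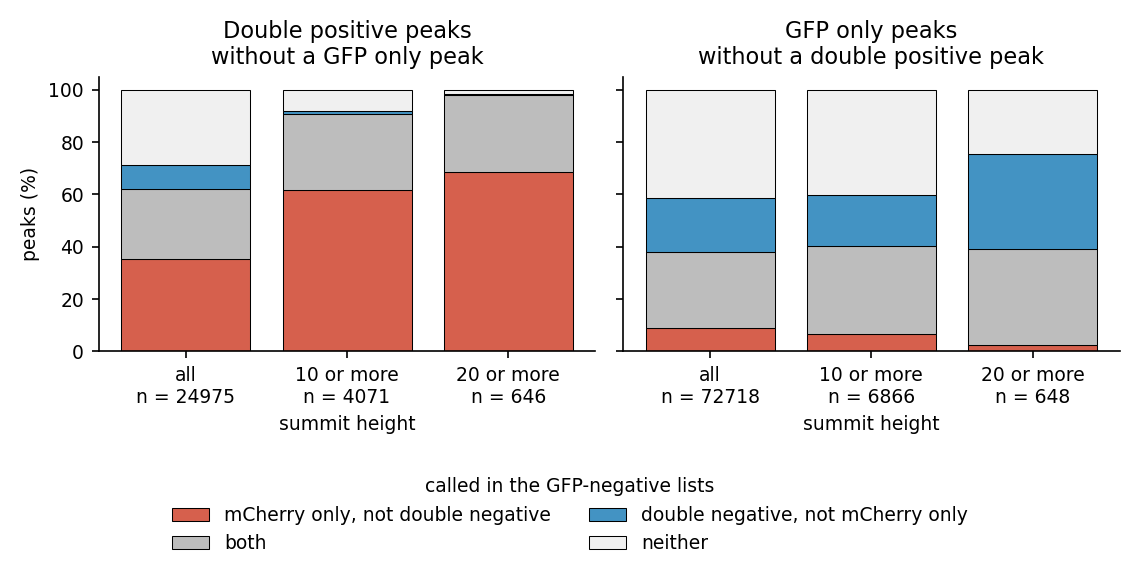
Share of unshared peaks (vertical axis, %) by the GFP-negative lists that also called them, for double positive peaks without a GFP only peak (left) and GFP only peaks without a double positive peak (right), at all heights, at 10 or more and at 20 or more. The part called in mCherry only and not in double negative is 35.4%, 61.8% and 68.7% of gained regions, and 8.77%, 6.51% and 2.47% of lost regions.

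Among tall unshared regions called in both GFP-negative lists, the gained ones were split by mCherry more clearly than the lost ones. At any height the order was the opposite, with a median log2 ratio of mCherry only over double negative of 0.053 for gained and −0.26 for lost regions. In the 1182 tall gained regions of this kind, the height was 9.87 in mCherry only and 5.82 in double negative in the median. The median log2 ratio of mCherry only over double negative was 0.62 (quartiles 0.11 and 1.13). In 377 of them (31.9%) the mCherry only height was at least 2-fold the higher, and in 18 (1.52%) it was at least 2-fold the lower. In the 2326 tall lost regions the medians were 6.50 in mCherry only and 7.39 in double negative, and the median log2 ratio was −0.11 (−0.56 and 0.28). There 71 regions (3.05%) were at least 2-fold higher and 221 (9.50%) at least 2-fold lower in mCherry only. Over all 91684 regions paired 1 to 1 between mCherry only and double negative, at any height, these shares were 6.2% and 9.2%. Lost regions of any height called in both lists numbered 21333, of which 2.40% were 2-fold higher and 17.8% 2-fold lower in mCherry only. For the 6681 gained regions of any height these shares were 11.9% and 8.25%. The shares of tall regions are not set against those of pairs at any height.

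Some of the tallest unshared peaks lay where the local background was very high. All 10 of the tallest lost peaks had an expected local background of 80.7 to 140 reads, at least 18.9 times the genome-wide value, and folds of 1.46 to 2.08. In first place, chromosome 8 from 45705994 to 45706244 held 222 reads in GFP only (exact Poisson 95% interval 194 to 253), 217 in mCherry only and 229 in double negative, and no peak in double positive. Its local background in GFP only was 140 reads and its fold 1.59, and the 3 lists that called it differed by less than the width of the counting interval. Of the 10 tallest gained peaks, 3 were of this kind, on chromosomes 24, 18 and 17, and 7 were wide peaks of 620 to 1093 bp called in mCherry only, with a local background of 3.29 to 8.21 times the genome-wide value and folds of 4.71 to 11.2. Among all tall peaks, 3306 gained and 6109 lost ones had a local background of at most 3 times the genome-wide value.

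Among peaks with a local background of at most 3 times the genome-wide value, the 10 tallest gained ones were all called in mCherry only and 3 of them in double negative. This limit was set after the values were seen. The first of them, on chromosome 24 from 1259959 to 1260741, held 137 reads in double positive (115 to 162) and 95 in mCherry only, and no peak in GFP only or double negative. On chromosome 15 from 34494063 to 34494555 there were 131 reads in double positive (110 to 155) and 112 in mCherry only, again with no peak in the mCherry-negative lists. On chromosome 5 from 43055904 to 43056480 there were 127 reads in double positive (106 to 151) and 64 in mCherry only. In each of these 3 regions mCherry only also held a peak and double negative did not. The double positive height and the missing GFP only peak follow from the choice of the regions. Of the 646 gained regions of height 20 or more, at any local background, 98.0% were called in mCherry only and 29.9% in double negative.

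The 10 tallest lost ones under the same limit had 126 to 135 reads in GFP only. All 10 were also called in double negative and 7 of the 10 in mCherry only, with far fewer reads. The first of them, on chromosome 8 from 9459358 to 9460147, held 135 reads in GFP only (113 to 160), 20 in mCherry only and 35 in double negative. On chromosome 1 from 4936239 to 4936751 GFP only had 134 reads (112 to 159), double negative had 26 and neither mCherry-positive list had a peak. On chromosome 17 from 52397815 to 52398340 there were 130 reads in GFP only (109 to 154), 28 in mCherry only and 58 in double negative. GFP only stood above all other lists in these regions, which follows in part from the choice by GFP only height and by a missing double positive peak. Double negative was next in these 3. In others mCherry only was next, with 45 reads against 27 on chromosome 8 from 17259898 to 17260581. On chromosome 14 from 53521400 to 53522299 it had 31 reads against 24 in double negative. Of the 648 lost regions of height 20 or more, at any local background, 73.15% were called in double negative and 39.2% in mCherry only.

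Regions called in both lists were mostly of similar height. There were 62380 regions in which 1 double positive peak met 1 GFP only peak, and in 23349 of them the geometric mean of both heights was 10 or more. The median log2 ratio of double positive over GFP only was 0.15 in these 23349 (quartiles −0.11 and 0.42), and 73.8% lay within 1.5-fold of equality. At least 2-fold higher in double positive were 2249 regions (9.63%), and at least 2-fold lower were 973 (4.17%). At least 4-fold higher were 580 and at least 4-fold lower 159. With heights scaled so that the median ratio was 1, the 2-fold counts were 1883 higher and 1253 lower.

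The direction of these counts depended on which list selected the regions. Selected on a double positive height of 10 or more alone, 4284 regions were 2-fold higher and 112 lower. Selected on a GFP only height of 10 or more alone, 442 were 2-fold higher and 2837 lower. The fold as the authors deposited it, which divides by the local background, gave 939 higher and 485 lower, with a median log2 ratio of 0.0077.

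**Figure D3:**
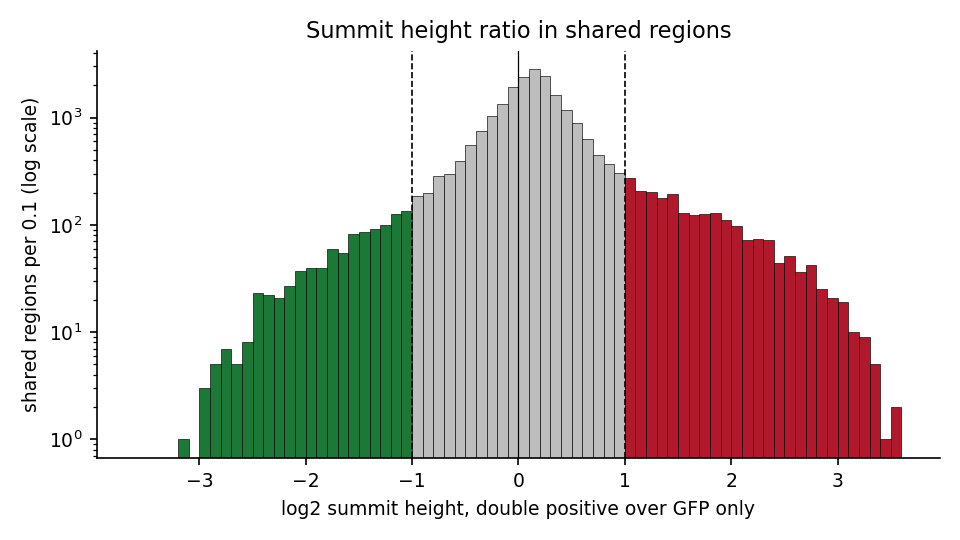
Number of shared regions (vertical axis, log scale, per 0.1 of log2 ratio) by the log2 summit height of double positive over GFP only (horizontal axis), for the 23349 regions with a geometric mean height of 10 or more; dashed lines mark 2-fold. The centre lies at 0.15, with 2249 regions beyond the right line and 973 beyond the left line.

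Width moved with height, while most summits stayed close to each other. Over all 62380 shared regions the median width was 394 bp in double positive and 419 bp in GFP only, and the median log2 width ratio was −0.032. In regions with a geometric mean height of 10 or more this ratio was 0.0072. Regions at least 2-fold higher in double positive were 631 bp wide there and 417 bp in GFP only in the median, and 93.6% were wider in double positive. Regions at least 2-fold lower were 384 bp wide in double positive and 613 bp in GFP only, and 4.32% were wider in double positive. A peak's called width depends on its height, so these are not separate observations. Summits lay a median of 15 bp apart in the 23349 taller regions and within 100 bp in 89.7% of them.

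The 10 shared regions with the highest ratio had 126 to 152 double positive reads and 13 to 17 GFP only reads, close to the 11 reads at which the GFP only list began. First in rank was chromosome 7 from 45432718 to 45433671, where 146 reads were found in double positive, 15 in GFP only, 99 in mCherry only and 46 in double negative. Its height was 11.4 times as large in double positive as in GFP only (95% counting interval 6.71 to 20.9). Rank 3 was chromosome 9 from 31646508 to 31647084, where there were 148 reads in double positive, 16 in GFP only, 109 in mCherry only and 15 in double negative. Both mCherry-positive lists were high and both mCherry-negative lists low there, where the order of double positive and GFP only follows from the ranking. All 10 were called in mCherry only, and the 6 also called in double negative were all higher in mCherry only than in double negative.

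The 10 with the lowest ratio had 13 to 18 double positive reads and 120 to 150 GFP only reads. First in rank was chromosome 17 from 26815542 to 26817004, where 13 reads were found in double positive, 132 in GFP only, 33 in mCherry only and 37 in double negative. Its height in double positive was 0.116 of that in GFP only (0.0600 to 0.205). On chromosome 24 from 35679447 to 35680376 there were 18 reads in double positive, 148 in GFP only, 28 in mCherry only and 56 in double negative. The double positive and GFP only summits lay 317 bp apart in this region and 89 bp apart in the first in rank. GFP only was the one list that was high in both of these regions, and its place above double positive follows from the ranking. Of the 8 regions called in both GFP-negative lists, 7 were lower in mCherry only than in double negative. Counting either peak of a pair, 97.7% of all 973 regions at least 2-fold lower were called in mCherry only and 96.4% in double negative.

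Regions at least 2-fold higher in double positive than in GFP only were mostly also higher in mCherry only than in double negative. Of the regions at least 2-fold lower in double positive, 44.8% were lower in mCherry only, or 54.0% with both ratios centred on their medians. Of all regions compared, 67.0% were higher in mCherry only. The contrast of mCherry only over double negative again sets mCherry-positive against mCherry-negative cells, here without GFP, and shares no sample with double positive over GFP only. It could be read in 18786 of the shared regions, where each pair of lists had a geometric mean height of 10 or more. The mCherry only and double negative peaks were those that met the double positive peak 1 to 1. They were not matched to the GFP only peak. Of 1301 regions at least 2-fold higher in double positive, 1168 (89.8%, 88.0 to 91.3) were higher in mCherry only than in double negative, with a median log2 ratio of 0.90 (quartiles 0.42 and 1.39). Over all 18786 regions 67.0% were higher in mCherry only, with a median of 0.12. Among the 9193 regions with a log2 ratio of double positive over GFP only from 0 to 0.5, 65.1% were higher in mCherry only. At least 2-fold higher in mCherry only were 582 of the 1301 (44.7%), beside 6.66% of all 18786.

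Of 507 regions at least 2-fold lower in double positive, 227 (44.8%, 40.5 to 49.1) were lower in mCherry only than in double negative. Their median log2 ratio was 0.059 (−0.31 and 0.42). The double positive peak, which served for the matching, was the narrower one among all 973 lower regions, with medians of 384 and 613 bp. Whether this affects the shares of lower regions was not tested. Since 67.0% of all 18786 regions were higher in mCherry only, lower ones were more common among the 507 than among all. At least 2-fold lower in mCherry only were 18 of the 507 (3.55%), beside 0.431% of all 18786, and 21 were at least 2-fold higher. With both ratios centred on their medians, 700 regions were 2-fold lower in double positive and 54.0% of them were lower in mCherry only. Among the 41 of the 18786 regions that were at least 4-fold lower in double positive the median was −0.36, and 34.1% were higher in mCherry only. Of the same 18786 regions, 81 were at least 2-fold lower in mCherry only and 1252 at least 2-fold higher. In the 28406 regions paired 1 to 1 between mCherry only and double negative, with a geometric mean height of 10 or more there and no condition on peaks, pairing or height in the GFP-positive lists, 1646 were at least 2-fold lower and 1620 at least 2-fold higher in mCherry only. These sets differ in more than 1 choice, so their counts are not set against each other. Of all peaks, 27.9% of the 134260 in mCherry only met no double negative peak, and 42.1% of the 166282 in double negative met no mCherry only peak.

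**Figure D4:**
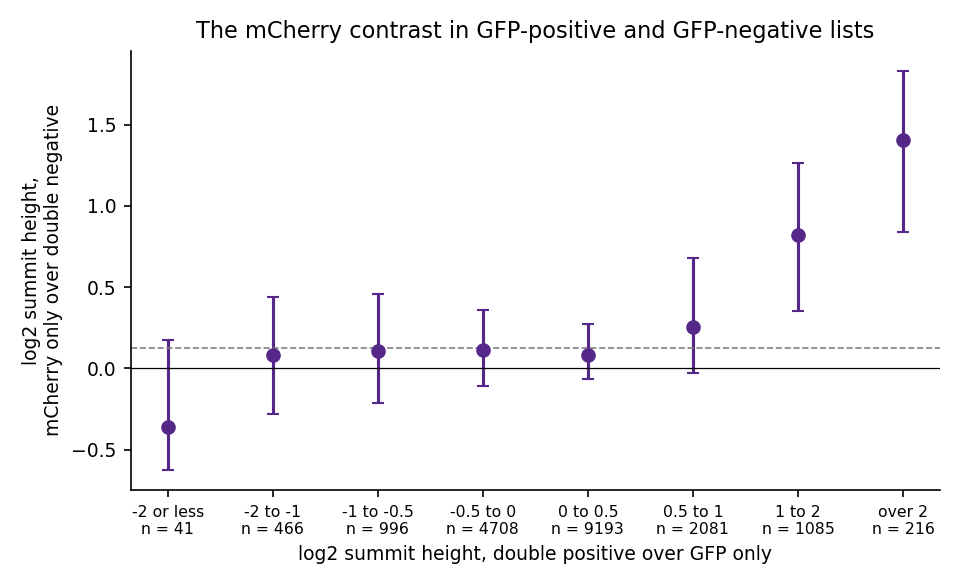
Log2 summit height of mCherry only over double negative (vertical axis, points are medians, bars quartiles) by the log2 summit height of double positive over GFP only (horizontal axis, binned). Shown are the 18786 shared regions whose double positive peak also met 1 mCherry only and 1 double negative peak, each 1 to 1. Each pair of lists had a geometric mean height of 10 or more there. The dashed line is the median over these regions, 0.12. Medians lie at 0.82 and 1.40 in the 2 highest bins and at −0.36 in the lowest, and between 0.079 and 0.25 elsewhere.

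In the 1301 regions higher in double positive, the mCherry-positive lists stood together and the mCherry-negative lists stood together. Median heights were 25.3 in double positive, 19.3 in mCherry only, 10.1 in double negative and 8.44 in GFP only. GFP only was the lowest list in 846 of them and double negative in 454. In the 507 regions lower in double positive, median heights were 7.71 in double positive, 14.1 in mCherry only, 13.0 in double negative and 21.3 in GFP only. GFP only was the highest list in 407 of these and double positive the lowest in 464, with the GFP-negative lists between them. The regions were chosen on the double positive and GFP only heights, so the place of those lists follows in part from the choice, and the order of the GFP-negative lists does not.

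Gained and lost regions were spread over all chromosomes at similar shares. The gained share ranged from 24.7% on chromosome 25 (23.0 to 26.4) to 30.5% on chromosome 9 (29.0 to 32.0), and the lost share from 48.5% on chromosome 3 (47.2 to 49.7) to 56.6% on chromosome 9 (55.3 to 57.8). Among tall peaks the gained share was highest on chromosome 23, at 17.5%, and lowest on chromosome 3, at 10.2%. On chromosome 4 beyond 25 Mb, 511 of 2126 double positive peaks were gained (24.0%, 22.3 to 25.9) and 1859 of 3459 GFP only peaks were lost (53.7%, 52.1 to 55.4). Of the 511 gained regions there 19 were tall, and of the 1859 lost ones 49, beside 16.3% of all gained and 9.44% of all lost regions. Within 1 Mb of the first and last base that any list reached, 26.8% of double positive peaks were gained and 47.9% of GFP only peaks were lost.

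Windows of 5 Mb hold far fewer peaks than chromosomes, so their shares carry a larger counting error, and whether they vary beyond it was not tested. Over 278 windows with at least 100 peaks of each list, the gained share had a median of 27.7% and ran from 15.5% to 37.0%, and the lost share had a median of 52.7% and ran from 31.9% to 64.1%. The lowest of both was the first window of chromosome 22, from 1 to 5000000, with 73 of 470 double positive peaks gained (15.5%, 12.5 to 19.1) and 184 of 577 GFP only peaks lost. The next lowest gained shares were 19.3% on chromosome 4 from 35000001 to 40000000 and 19.7% on chromosome 15 from 5000001 to 10000000. The highest were 37.0% on chromosome 19 from 35000001 to 40000000 (31.9 to 42.4), 36.9% on chromosome 4 from 20000001 to 25000000 and 35.6% on chromosome 9 from 35000001 to 40000000.

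Some gained regions lay in rows. With gaps of at most 20 kb between summits, 3099 gained regions (12.4%) formed 501 runs of 5 or more, and 38005 lost regions (52.3%) formed 4674. The density of the classes differs, so these numbers do not compare with each other. The longest gained runs held 15 regions each, on chromosome 22 from 16208534 to 16343141 and on chromosome 8 from 29378177 to 29471965, and a run of 13 lay on chromosome 20 from 51694928 to 51802253. On chromosome 22 the gained regions had 18 to 93 reads, 11 of the 15 were called in mCherry only and 4 in double negative. On chromosome 8, 11 of the 15 were called in mCherry only and 10 in double negative. Of all 24975 gained regions, 62.2% were called in mCherry only and 35.8% in double negative. Whether these runs differ from that was not tested.

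The longest lost runs held 59 regions on chromosome 22 from 38568620 to 39055950, 52 on chromosome 4 from 13014794 to 13338034 and 44 on chromosome 1 from 52709224 to 52925190. In the run on chromosome 1, 21 of the 44 were tall, with up to 94 reads, and 7 were called in mCherry only and 8 in double negative. That stretch contained 11 double positive and 54 GFP only peaks, against 18 in mCherry only and 24 in double negative. Its double positive and GFP only counts follow in part from the choice of the run. On chromosome 22, 27 of the 59 were called in mCherry only and 31 in double negative. Of all 72718 lost regions, 38.1% were called in mCherry only and 49.8% in double negative.

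Runs of tall regions were short and dense. The longest tall gained run held 8 regions within 28.9 kb on chromosome 11 from 18863625 to 18892538, with 40 to 123 reads. All 8 were called in mCherry only and none in double negative, beside 90.8% and 30.2% of all 4071 tall gained regions. There the double positive list held 8 peaks, GFP only 2, mCherry only 9 and double negative 1. The longest tall lost run held 12 regions within 54.1 kb on chromosome 19 from 5969863 to 6024001, with 43 to 95 reads. Of these 3 were called in mCherry only and 8 in double negative, beside 40.4% and 53.2% of all 6866 tall lost regions. There the double positive list held 1 peak, GFP only 18, mCherry only 6 and double negative 11. In both of these tall runs the double positive and GFP only counts follow in part from the choice of the run.

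Shared regions close to tall gained summits were more often 2-fold higher in double positive, and those within 5 kb of tall lost summits more often 2-fold lower, than regions over 100 kb away. Within 5 kb of a tall gained summit lay 1937 of the 23349 shared regions, of which 379 (19.6%) were at least 2-fold higher in double positive and 40 (2.07%) at least 2-fold lower. Farther than 100 kb from any tall gained summit these shares were 5.55% and 4.33% of 11061 regions. The median log2 ratio was 0.31 within 5 kb and 0.11 beyond 100 kb. Within 5 kb of a tall lost summit lay 2451 shared regions, of which 167 (6.81%) were 2-fold higher and 226 (9.22%) 2-fold lower. Their median log2 ratio was still above 0, at 0.083, against 0.16 beyond 100 kb from any tall lost summit. From 5 to 10 kb the order was already the opposite, with 9.78% 2-fold higher and 6.78% lower. Beyond 100 kb these shares were 9.28% and 2.23% of 8222 regions.

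**Figure D5:**
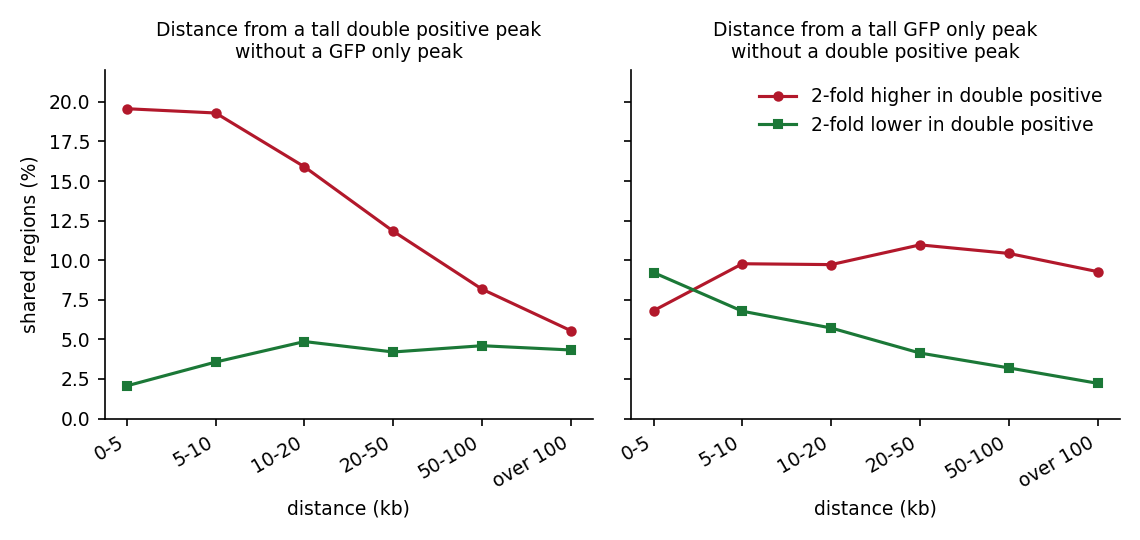
Share of shared regions at least 2-fold higher or at least 2-fold lower in double positive (vertical axis, %) by distance in kb (horizontal axis) from the nearest tall double positive peak without a GFP only peak (left) and the nearest tall GFP only peak without a double positive peak (right). The share of higher regions is 19.6% within 5 kb of a gained summit and 5.55% beyond 100 kb, and the share of lower regions is 9.22% within 5 kb of a lost summit and 2.23% beyond 100 kb.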

How the data were processed

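The submitters' processing notes name the danRer7 build, MACS2 2.1.0 and Bowtie2 2.2.1. Not given in the sources used here are the caller settings, the read filters, any Tn5 offset and how samples were pooled. The authors deposited for each peak a fold (a linear ratio over the local background), a −log10 p, a −log10 q, a display score that in nearly every peak equals 10 times −log10 q, rounded down, and a summit offset. Those per-peak values are the authors' own.

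Reads at each summit were recovered as the whole number, with its expected local background, that gives both the deposited fold and −log10 p under a Poisson tail where 1 is added to both terms of the fold. No misfit in −log10 p exceeded 0.000382, while the next whole number missed by at least 0.00808. That model is inferred from the values. The lowest expected background of a list served as its genome-wide background. Recovery and overlap were tested on simulated data.

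Peaks sharing 1 bp or more were called shared, and coordinates are 1-based. The counting intervals are Wilson for shares, exact Poisson for reads and exact binomial for ratios of reads, all at 95%. Python 3.11.15, numpy 2.4.6, scipy 1.17.1 and pandas 2.3.3 were used. Each fraction is 1 pooled list, so no test over samples was made. Regions were named by rank: the 10 tallest gained and lost peaks, the 10 highest and lowest shared ratios, the 3 longest runs and the 3 highest and lowest windows, with examples drawn from each; tall runs are an addition. The regions, rules and limits were chosen with earlier results of these data known. The limit on local background was added after the values were seen. Peaks on the mitochondrial chromosome, 2 in each of these lists, were left out.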

Additional observations from a re-analysis of the deposited data

Results flagged for a closer look

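Of the 20 shared regions named by their ratio, 6 of the highest and 8 of the lowest were called in both GFP-negative lists. Among these, 1 of the 8 had opposite directions in the GFP-positive and the GFP-negative lists. It lies on chromosome 20 from 49523742 to 49524500, where the log2 height was −2.99 for double positive (13 reads) over GFP only (121 reads) and 0.68 for mCherry only (107 reads) over double negative (67 reads). The double positive and GFP only summits lay 314 bp apart there, so their heights were read at different places. Each direction rests on 1 pooled list per fraction, and the difference was not tested.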

How the results depend on the processing

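No paired analysis was possible because each fraction is 1 pooled list, and leaving out a replicate was not possible for the same reason. Counts and ratios of counts within 1.5 times the reported value, and shares and medians within their 95% counting intervals, were taken as unmoved, which held for 47 of 92 values under the alternatives. Peaks within 100 bp summit to summit gave 38350 gained regions and 7270 tall ones, with shared shares of 57.7% (double positive) and 37.8% (GFP only). Reciprocal overlap of 50% gave 6460 tall gained regions and shares of 61.1% and 40.1%. Peaks up to 100 bp apart counted as shared gave 73.1% and 47.9%. With −log10 q of 5 or more the shares were 72.2% and 49.0% in both lists, and 78.7% and 57.4% in the counted list, where 14359 regions were gained and 42197 lost. Lists of equal length gave 36412 lost regions, a ratio of lost to gained of 1.01 and shares of 60.4% and 59.8%. A local background of at most 3 times the genome-wide value, chosen after seeing the data, gave 71.5% and 46.4%.

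In shared regions the median log2 ratio was 0.00 when scaled to it, 0.0077 with the deposited fold, 0.051 with no filter, 0.25 and 0.0043 when selected on double positive or GFP only height alone, and 0.12 with low local background. Regions 2-fold higher and lower numbered 939 and 485 with the deposited fold, 4923 and 3551 with no filter, 4284 and 112 selected on double positive, and 442 and 2837 selected on GFP only. The log2 width ratio was −0.027 with summits within 100 bp, −0.014 at −log10 q of 5 or more, and turned to 0.0072 in taller regions. The share of 2-fold higher regions also higher in mCherry only was 84.4% with no filter and 87.6% with low local background. For 2-fold lower regions also lower there it was 49.4% with no filter and turned to 54.0% with both ratios centred. Runs numbered 116 gained and 1931 lost with gaps of 10 kb, and 1521 gained with 50 kb. The cause of these changes was not tested, beyond those that a stricter rule or a shorter list brings by construction. The lists hold no unplaced scaffolds, so that alternative added mitochondrial peaks only and moved nothing.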

Other observations

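Some shared regions were not simple pairs. Of the double positive peaks, 1093 met more than 1 GFP only peak, and of the GFP only peaks, 1148 met more than 1 double positive peak.

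From height 20 to 30, 3.23% of mCherry only peaks met no double negative peak and 0.596% of double negative peaks met no mCherry only peak.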
